A study of Mus musculus with 6 samples.

Results

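Syndecans and glypicans are the main families of cell-surface proteoglycans that carry heparan sulfate, a long sulfated sugar chain. The group described here holds the genes of the 4 syndecans (Sdc1, Sdc2, Sdc3 and Sdc4) and of 5 glypicans (Gpc1, Gpc2, Gpc3, Gpc4 and Gpc6). They were chosen by name, with earlier results of these data known. These are 9 of the 55487 genes in the deposited table, and all 9 passed the low-count filter and were among the 11224 genes tested. Their transcripts were measured by RNA sequencing of muscle stem cells, which lie along muscle fibres and repair them, 60 h after cardiotoxin, a venom toxin that kills fibres and starts regeneration. The mice were 10 weeks old. The knockout (KO) group of 3 libraries came from mice labelled as Setdb1 KO that received tamoxifen, and the control group of 3 libraries from mice labelled wild type that received oil. Tamoxifen and genotype changed together, so their effects cannot be told apart. The sources used here name neither the allele, nor the recombinase, nor the promoter driving it. Setdb1 encodes a histone methyltransferase that places a silencing mark on lysine 9 of histone H3.

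A syndecan spans the membrane and has a short cytoplasmic tail that binds scaffold proteins, whereas a glypican is held at the outer face of the membrane by a lipid (GPI) anchor. Through their sugar chains both families bind growth factors such as FGFs, HGF and Wnts and present them to, or keep them from, their receptors. In mouse muscle, syndecan-3 and syndecan-4 are used as surface markers of satellite cells, the stem cells of muscle.

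Total counts per library ran from 4052569 to 5690844, of which a single ribosomal RNA gene took 28.6% to 38.4%. Setdb1 was measured at 16.5, 12.7 and 14.7 CPM (read counts relative to library size, normalised by TMM) in the KO libraries and at 34.8, 40.5 and 32.1 CPM in the control libraries (log2 fold change -1.30, SE 0.16, edgeR adjusted p = 2.09e-04). Pax7, the transcription factor that marks muscle stem cells, was at 26.9 ± 6.56 CPM in KO and 26.9 ± 5.70 CPM in control libraries (SD, n = 3 each). KO library 1 stood apart: counts were found for 30363 genes there, against 18737 to 19951 in each of the other libraries. Neutrophil markers summed to 1.33, 697 and 263 CPM in the KO libraries and to 0, 1.67 and 1975 CPM in the control libraries. Values without KO library 1 and without both it and control library 3 are therefore given for the members where a call or direction depends on them.

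Sdc4 was the most abundant member, and Sdc3 was the only one to pass the test. Of the 9 members, 1 was called higher and none lower in KO cells, at an adjusted p under 0.05 over all tested genes, where 2.83% of all tested genes were called, 2.22% higher and 0.615% lower. Sdc3 rose 1.64-fold. At an unadjusted p under 0.05 there were 4 members (Sdc1, Sdc3, Gpc2 and Gpc6), against 17.7% of all tested genes. The groups did not overlap for 3 members, with KO above control for Sdc1 and Sdc3 and below it for Gpc6; among all tested genes 24.3% did not overlap, 12.8% with KO higher and 11.5% with KO lower. The median log2 fold change of the members was 0.19, and that of all tested genes 0.0074. Fewer cells of a type and less RNA per cell cannot be told apart in these bulk samples.

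**Figure D1:**
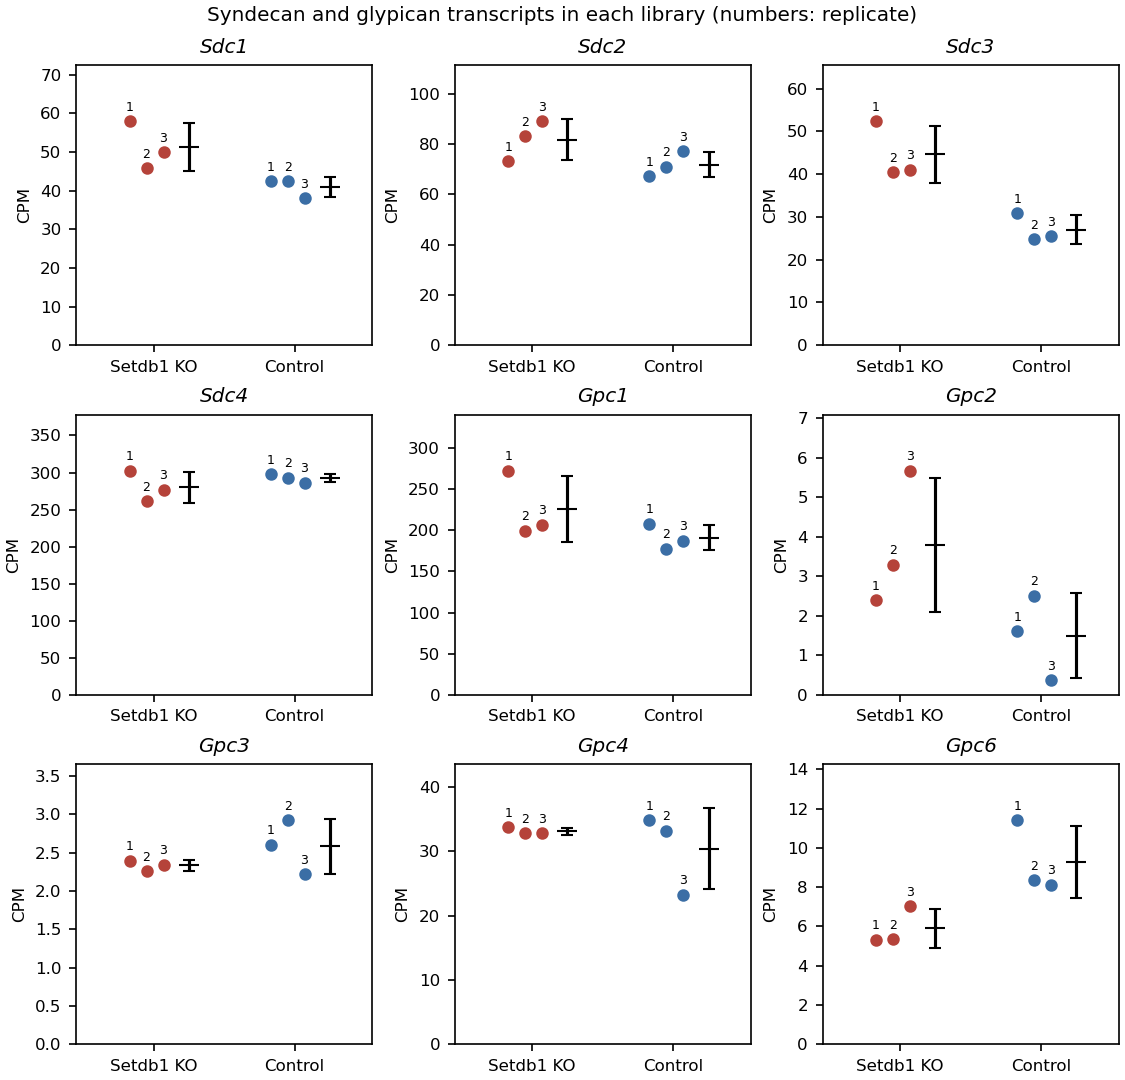
Normalised level (CPM, y axis from 0) of each syndecan and glypican in the 3 Setdb1 KO libraries (red, left) and the 3 control libraries (blue, right); numbers mark the replicate, and bars give the mean ± SD. The 3 KO values lie above all control values for Sdc1 and Sdc3 and below them for Gpc6.

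Among the syndecans, Sdc3 (ENSMUSG00000025743, chromosome 4, 130792537 to 130826319, plus strand, GRCm38) encodes the syndecan with the longest extracellular part, best known from the nervous system and from satellite cells. It was measured at 52.4, 40.5 and 41.0 CPM in the KO libraries, against 30.8, 24.8 and 25.5 CPM in the control libraries. Every KO library was above every control library, and the highest value in each group came from library 1. The means were 44.6 ± 6.73 CPM in KO and 27.1 ± 3.29 CPM in control libraries (SD, n = 3 each). On the log2 scale the difference was 0.72 (SE 0.15, edgeR adjusted p = 0.0163). The call was not made by DESeq2 (log2 fold change 0.68, adjusted p = 0.0964), and it ended without KO library 1 (0.59, adjusted p = 0.0898) or control library 2 (0.65, adjusted p = 0.109) and with both KO library 1 and control library 3 left out (0.55, adjusted p = 0.0598). Scaling by library totals alone gave 0.64 with an adjusted p of 0.0611. Sdc3 overlaps the exons of the antisense genes Gm12970 and Gm26716 over 0.801% and 6.93% of its own exon length. Both antisense genes together held 1 count, in KO library 2.

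Sdc4 (ENSMUSG00000017009, chromosome 2, 164424247 to 164443887, minus strand) encodes a syndecan of focal adhesions that binds protein kinase C alpha through its tail. It was at 302, 261 and 277 CPM in the KO libraries, against 298, 293 and 286 CPM in the control libraries. The groups overlapped, with the highest and the lowest value both in KO libraries. The log2 fold change was -0.06 (SE 0.12, adjusted p = 0.825), and it lay between -0.14 and -0.02 over 16 alternative settings. Relative to Sdc4, Sdc3 was higher in every KO library than in any control library. Counts of Sdc3 per 100 counts of Sdc4 were 17.3, 15.5 and 14.8 in the KO libraries and 10.4, 8.48 and 8.90 in the control libraries. This ratio was not tested.

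The promoters of the changed and of the most abundant syndecan are shown for comparison, as the RefSeq window of 300 bases around the gene start (GRCm38.p6, read along the gene). Capitals mark TCCCGC or its reverse complement GCGGGA, a core found in sites of E2F factors, which was searched on both strands after the values were known. The Sdc3 window is chr4:130792287-130792586 on the plus strand and the Sdc4 window chr2:164443139-164443438 on the minus strand. RefSeq starts Sdc4 further downstream than the GENCODE annotation behind the gene positions given here, so the Sdc4 window lies inside the GENCODE gene and does not hold its outermost start.
Sdc3: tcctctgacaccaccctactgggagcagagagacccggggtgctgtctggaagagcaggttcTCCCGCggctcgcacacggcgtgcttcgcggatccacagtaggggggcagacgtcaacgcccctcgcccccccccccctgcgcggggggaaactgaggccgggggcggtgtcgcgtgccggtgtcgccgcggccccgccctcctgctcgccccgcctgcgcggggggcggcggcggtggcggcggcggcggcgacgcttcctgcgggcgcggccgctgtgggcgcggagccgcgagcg
Sdc4: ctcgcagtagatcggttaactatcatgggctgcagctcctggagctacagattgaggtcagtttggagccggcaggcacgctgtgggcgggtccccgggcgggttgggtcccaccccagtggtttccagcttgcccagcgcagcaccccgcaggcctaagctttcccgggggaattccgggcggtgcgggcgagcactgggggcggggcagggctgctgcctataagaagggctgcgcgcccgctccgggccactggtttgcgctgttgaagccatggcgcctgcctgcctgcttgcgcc
The Sdc3 window held 44 CG dinucleotides and 1 TCCCGC, and the Sdc4 window 22 CG dinucleotides and none of that motif. Of 32841 promoter windows of the same length, 20% held the motif on either strand, and the median number of CG dinucleotides was 7. CANNTG, the E-box that myogenic factors such as the Myod1 product bind and that reads the same on both strands, occurred in neither of these windows and in 72.3% of all windows. In the 6 members with an entry (Sdc1, Sdc3, Sdc4, Gpc2, Gpc3 and Gpc4) CG dinucleotides numbered 14 to 44.

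Sdc1 (ENSMUSG00000020592, chromosome 12, 8771323 to 8793715, plus strand) encodes a syndecan of epithelia and plasma cells that proliferating mouse myoblasts also carry. It was at 58.0, 45.8 and 50.03 CPM in the KO libraries, against 42.5, 42.4 and 38.1 CPM in the control libraries. The groups did not overlap, but the difference did not pass (log2 fold change 0.32, SE 0.13, adjusted p = 0.21). Sdc2 (ENSMUSG00000022261, chromosome 15, 32920723 to 33034935, plus strand) encodes a syndecan of mesenchymal cells. Its level was 73.1, 83.2 and 89.1 CPM in the KO libraries and 67.3, 71.0 and 77.2 CPM in the control libraries. Here the lowest KO library lay inside the control range (log2 fold change 0.19, SE 0.12, adjusted p = 0.424).

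Gpc1 (ENSMUSG00000034220, chromosome 1, 92831645 to 92860779, plus strand) was the most abundant glypican, and its product is known in mouse myoblasts for holding FGF2 away from its receptors. It was at 273, 200 and 207 CPM in the KO libraries, against 208, 178 and 187 CPM in the control libraries. KO library 1 was above all others, and KO libraries 2 and 3 lay within the control range (log2 fold change 0.24, SE 0.14, adjusted p = 0.373). Over 18.9% of its exon length Gpc1 overlaps Ankmy1 on the opposite strand, which held 2 to 11 counts per library, and the strand setting of the counting is not given.

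Gpc4 and Gpc3 stand next to each other on the X chromosome. Gpc4 (ENSMUSG00000031119, 52053021 to 52165252, minus strand) encodes a glypican that modulates FGF and Wnt signals. Its values were 33.8, 32.9 and 32.8 CPM in the KO libraries and 34.8, 33.2 and 23.3 CPM in the control libraries, so that control library 3 alone was low. The log2 fold change was 0.13 (SE 0.16, adjusted p = 0.723), and its sign turned without control library 3 (-0.04). Gpc3 (ENSMUSG00000055653, 52272426 to 52613950, minus strand), the gene of the overgrowth syndrome of Simpson, Golabi and Behmel in humans, was near the detection limit. It had 9, 11 and 12 counts in the KO libraries and 13, 14 and 12 counts in the control libraries (log2 fold change -0.14, SE 0.38, adjusted p = 0.891).

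Gpc6 (ENSMUSG00000058571, chromosome 14, 116925315 to 117976544, plus strand), whose loss in humans causes omodysplasia, a skeletal growth disorder, was the member with the most negative fold change. It was at 5.32, 5.34 and 7.04 CPM in the KO libraries, against 11.4, 8.35 and 8.13 CPM in the control libraries. All KO libraries were below all control libraries, but the difference did not pass (log2 fold change -0.65, SE 0.25, adjusted p = 0.197). These levels rest on 20 to 36 counts per KO library and 40 to 57 counts per control library. Gpc6 counts per 100 Gpc1 counts were 1.95, 2.67 and 3.40 in the KO libraries and 5.49, 4.70 and 4.34 in the control libraries.

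Gpc2 (ENSMUSG00000029510, chromosome 5, 138273655 to 138280005, minus strand) encodes cerebroglycan, a glypican of developing neurons. It had 9, 16 and 29 counts in the KO libraries and 8, 12 and 2 counts in the control libraries. KO library 3 was the highest and control library 3 the lowest, and the groups overlapped (2.39, 3.29 and 5.67 CPM in KO, against 1.602, 2.51 and 0.369 CPM in control libraries). The log2 fold change was 1.38 (SE 0.54, adjusted p = 0.205), and it ran from 0.90 to 1.95 when 1 library was left out. Gpc2 shared 49.7% of its 50-base words with Gm43720, a gene model that overlaps it on the same strand and held 7 counts, all in KO library 1, and how reads were split between both genes is not known.

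Gpc2 lies head to head with Stag3, a cohesin subunit gene of meiotic cells (chromosome 5, 138280240 to 138312393, plus strand), with 234 bases between the annotated ends. Stag3 was looked at as the nearest tested neighbour and singled out after its values were seen. It had 40, 29 and 46 counts in the KO libraries and 1, 9 and 7 counts in the control libraries. Its level rose to 8.53 ± 2.38 CPM in KO libraries, against 1.12 ± 0.85 CPM in control libraries (SD, n = 3 each; log2 fold change 2.89, SE 0.47, edgeR adjusted p = 0.00359), and the call held in all 16 alternative settings. The RefSeq promoter window of Gpc2 (GRCm38.p6, chr5:138279888-138280187, minus strand), of which 182 bases fall between both genes, is shown because it lies beside a gene that rose, with the same capitals as above.
Gpc2: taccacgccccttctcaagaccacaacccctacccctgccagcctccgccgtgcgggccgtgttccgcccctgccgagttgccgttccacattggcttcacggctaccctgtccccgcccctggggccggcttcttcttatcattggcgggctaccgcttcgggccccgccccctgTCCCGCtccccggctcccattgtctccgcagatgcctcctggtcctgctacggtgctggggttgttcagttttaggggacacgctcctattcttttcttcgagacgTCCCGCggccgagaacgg
The window held 2 matches to TCCCGC, and 2 or more were found in 4.96% of all windows. It held 26 CG dinucleotides. The Gpc3 window, of a member that was not called, held 3 matches, 3 or more being found in 1.13% of all windows, and the Sdc1 and Gpc4 windows held 1 each. Matches describe the letters only, since binding was not measured.

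**Figure D2:**
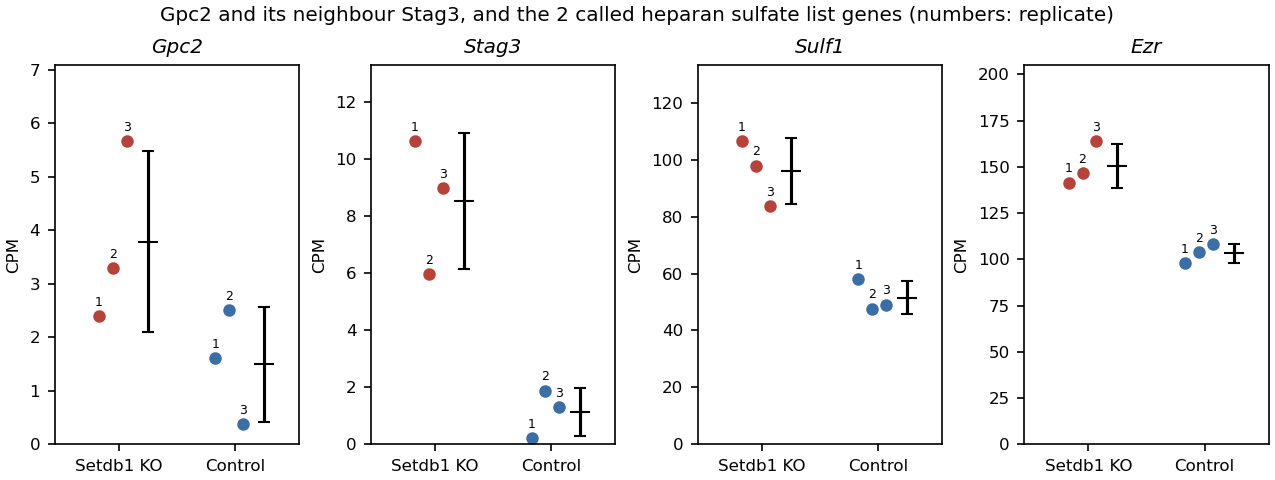
Normalised level (CPM, y axes from 0) of Gpc2, its head-to-head neighbour Stag3, and Sulf1 and Ezr in the 3 Setdb1 KO libraries (red, left) and the 3 control libraries (blue, right), with mean ± SD. The groups overlap for Gpc2 and lie apart for Stag3, Sulf1 and Ezr.

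Among the nearest tested protein-coding genes on both sides of each member, 2 of 18 were called, Stag3 and Sema5a, where 2.83% of all tested genes were called. The difference between these shares was not tested. The 18 include the members Gpc3 and Gpc4, each beside the other, and the largest distance was 3609 kb, on the lower side of Gpc6. Sema5a, a semaphorin gene 224 kb from Sdc2 that was also singled out after its values were seen, rose to 8.19 ± 0.87 CPM in KO, against 1.35 ± 0.75 CPM in control libraries (log2 fold change 2.55, SE 0.37, edgeR adjusted p = 0.00106). Beside Sdc3, Laptm5, a gene of blood cells, had a log2 fold change of 0.04 (adjusted p = 0.989). Beside Sdc4, the protease inhibitor gene Slpi had 1.40 (adjusted p = 0.183) and the Golgi protein gene Sys1 0.01 (adjusted p = 0.996). Slpi passed without control library 3 (2.42, adjusted p = 0.025) and without both that library and KO library 1 (2.63, adjusted p = 0.0073).

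Levels of different genes were compared per kilobase of annotated exon. On this scale Sdc4 was highest, at 110 ± 8.18 CPM per kb in KO and 115 ± 2.26 CPM per kb in control libraries. Over all 6 libraries the order of mean levels was Sdc4 (112), Gpc1 (40.5), Sdc2 (21.8), Sdc1 (12.1), Gpc4 (11.99), Sdc3 (5.99), Gpc6 (1.18), Gpc3 (0.913) and Gpc2 (0.617 CPM per kb). The ranges over libraries overlapped between Sdc1 and Gpc4, between Gpc6 and Gpc3 and between Gpc3 and Gpc2, and lay apart between all other neighbours in this order. Gpc6 averaged above Gpc3 in both groups (0.918 against 0.867 CPM per kb in KO and 1.45 against 0.959 in control libraries). For the other overlapping pairs the order of means differed between groups. Sdc1 averaged 13.5 and Gpc4 12.5 CPM per kb in KO libraries, against 10.8 for Sdc1 and 11.5 for Gpc4 in control libraries. Gpc2 averaged 0.885 and Gpc3 0.867 CPM per kb in KO libraries, against 0.349 for Gpc2 and 0.959 for Gpc3 in control libraries. Sdc3, a marker of satellite cells, was thus the least abundant syndecan transcript per length in these cells.

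The make-up of the syndecan pool differed between groups by a few percentage points. Sdc4 made up 72.7%, 70.8% and 70.6% of the summed syndecan level per kb in the KO libraries, against 76.8%, 76.5% and 75.7% in the control libraries. Sdc3 made up 5.35%, 4.66% and 4.46% in the KO libraries, against 3.38%, 2.76% and 2.87% in the control libraries. Sdc1 made up 9.31%, 8.30% and 8.54% in the KO libraries, against 7.32%, 7.39% and 6.73% in the control libraries. For these 3 genes the groups did not overlap, with Sdc3 and Sdc1 higher and Sdc4 lower in KO libraries, while the Sdc2 shares overlapped. No test was made, since a share over members is a score of the list. Summed syndecan levels were 163, 145 and 154 CPM per kb in the KO libraries and 152, 151 and 149 in the control libraries, so the sums overlapped. Of the glypican sum, Gpc1 made up 74.0% ± 3.34 in KO and 72.4% ± 4.03 in control libraries, and Gpc6 1.58% ± 0.37 in KO and 2.81% ± 0.29 in control libraries (SD, n = 3 each). Gpc3 made up 1.48% ± 0.15 in KO and 1.88% ± 0.26 in control libraries. The groups did not overlap in the shares of Gpc6 and Gpc3. The Gpc3 shares rest on 9 to 14 counts per library. Its own level overlapped between groups (2.26 to 2.39 CPM in KO and 2.22 to 2.92 CPM in control libraries). How often such shares lie apart among other genes was not measured.

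**Figure D3:**
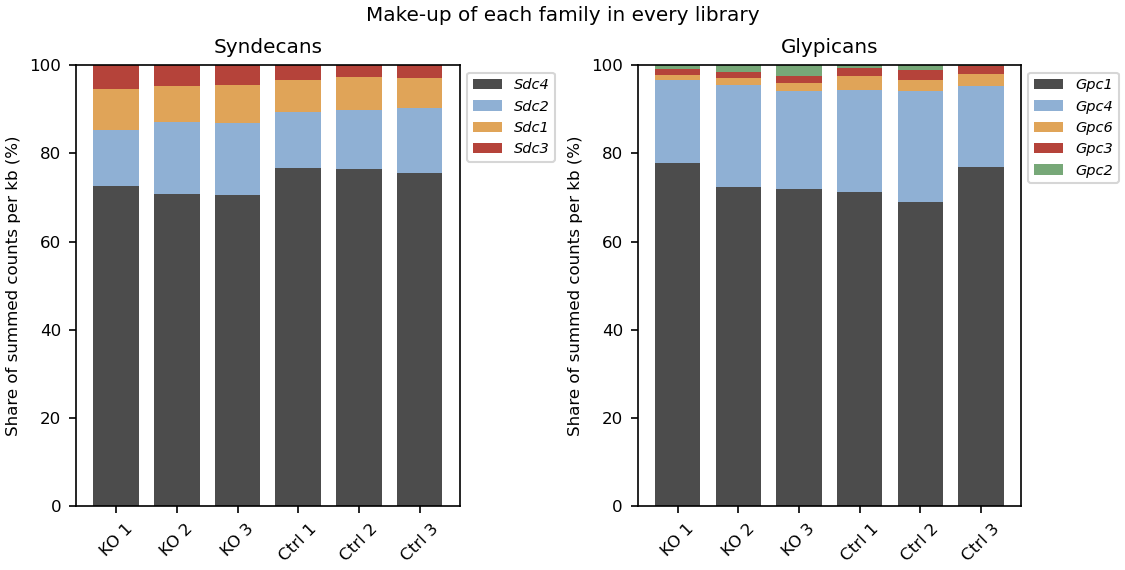
Share (%) of each gene in the summed counts per kb of exon of the 4 syndecans (left panel) and the 5 glypicans (right panel), 1 bar per library, with the KO libraries left of the control libraries. Sdc4 and Gpc1 fill most of each bar, and the Sdc3 segment is 4.46% to 5.35% in KO and 2.76% to 3.38% in control libraries.

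Among genes that build, edit, anchor or bind the proteoglycans, Sulf1 and Ezr passed the test. Of 97 genes in 10 lists, 75 were tested, and 2 were called higher and none lower in KO cells, a share near the 2.83% called among all tested genes. The lists had a median log2 fold change of 0.14, against 0.0074 for all tested genes, and 59 of the 75 had a positive value, against 50.9% of all tested genes. Scaled by library totals alone, 49 of the 75 were positive, against 42.3% of all tested genes. The lists' median was 0.08 without control library 2. Without the low-count filter it was 0.15, below the 0.42 of all genes, and with DESeq2 it was 0.16, below 0.44. These 2 settings kept low-count genes and held 34908 and 34895 genes in all, so their medians cover another set of genes. Positive values there numbered 69 of 96 list genes without the filter, against 68.2% of all genes. With DESeq2 they numbered 73 of 96, against 68.6%. Sulf1 encodes a secreted sulfatase that removes sulfate groups from heparan sulfate outside the cell and so alters what the chains bind. It was at 107, 97.9 and 83.6 CPM in the KO libraries, against 58.1, 47.6 and 49.1 CPM in the control libraries, and every KO library was above every control library. Sulf1 rose 1.86-fold (log2 fold change 0.89, SE 0.13, edgeR adjusted p = 8.92e-04), and the call held in all 16 alternative settings. Sulf2, its relative, which was named after its values were seen, had 21, 30 and 47 counts in the KO libraries, against 33, 6 and 32 counts in the control libraries, and was not called (log2 fold change 0.60, SE 0.48, adjusted p = 0.558).

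Ezr encodes ezrin, which ties membrane proteins, syndecans among them, to the actin cytoskeleton. It was at 142, 146 and 164 CPM in the KO libraries, against 97.9, 104 and 108 CPM in the control libraries. The groups lay apart and Ezr rose 1.46-fold (log2 fold change 0.55, SE 0.11, edgeR adjusted p = 0.0183), a call that ended in 6 of 16 settings, among them the fits without KO library 2 or 3 or control library 1 or 2 (adjusted p from 0.0749 to 0.124). In the rest of the list of cytoplasmic partners of syndecans, none of the other 12 tested genes passed.

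No gene of chain initiation and polymerisation was called among 12 tested. The kinase gene Fam20b, whose product acts on the linkage sugar, was at 48.5 ± 2.47 CPM in KO and 44.8 ± 5.43 CPM in control libraries (adjusted p = 0.694), and the polymerase gene Ext1 at 33.9 ± 2.58 CPM in KO and 31.2 ± 4.18 CPM in control libraries (adjusted p = 0.699). None of 7 tested sulfation and epimerisation genes passed. Glce, the epimerase gene, was at 60.5 ± 5.64 CPM in KO and 62.1 ± 3.79 CPM in control libraries, and Hs2st1, a sulfotransferase gene, at 56.4 ± 2.71 CPM in KO and 67.6 ± 11.6 CPM in control libraries (adjusted p = 0.333). Among 8 genes of precursor supply none passed. Ugdh, which makes the glucuronic acid donor, was at 78.5 ± 11.5 CPM in KO and 60.3 ± 5.09 CPM in control libraries (log2 fold change 0.38, adjusted p = 0.139), and Uxs1 at 38.9 ± 2.96 CPM in KO and 37.8 ± 1.28 CPM in control libraries.

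None of 5 tested genes of lysosomal breakdown passed. Ids was at 25.8 ± 3.12 CPM in KO and 23.4 ± 4.33 CPM in control libraries. Nor did any of 6 tested genes of shedding and release, where the sheddase gene Adam10 was at 74.0 ± 5.92 CPM in KO and 70.4 ± 3.39 CPM in control libraries and Adam17 at 56.5 ± 1.55 CPM in KO and 58.0 ± 4.75 CPM in control libraries. The 5 genes of the transamidase that attaches the GPI anchor did not pass, with Pigk at 26.6 ± 4.73 CPM in KO and 25.9 ± 2.45 CPM in control libraries and Pigt at 34.1 ± 8.76 CPM in KO and 32.4 ± 4.37 CPM in control libraries. Of 6 tested genes of other core proteins that can carry heparan sulfate, none passed. Cd44 was at 950 ± 61.6 CPM in KO and 917 ± 51.2 CPM in control libraries, and Hspg2, the perlecan gene, at 308 ± 43.6 CPM in KO and 268 ± 86.0 CPM in control libraries. No tested gene among 11 heparin-binding ligands passed, and those with the highest levels were Fn1 (log2 fold change 0.60, SE 0.68) and Thbs1 (0.14, SE 0.25). At an unadjusted p under 0.05 there were 9 of the 75 genes over all these lists, against 17.7% of all tested genes, and DESeq2 and limma-voom each called Sulf1 and Ezr and no other.

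**Figure D4:**
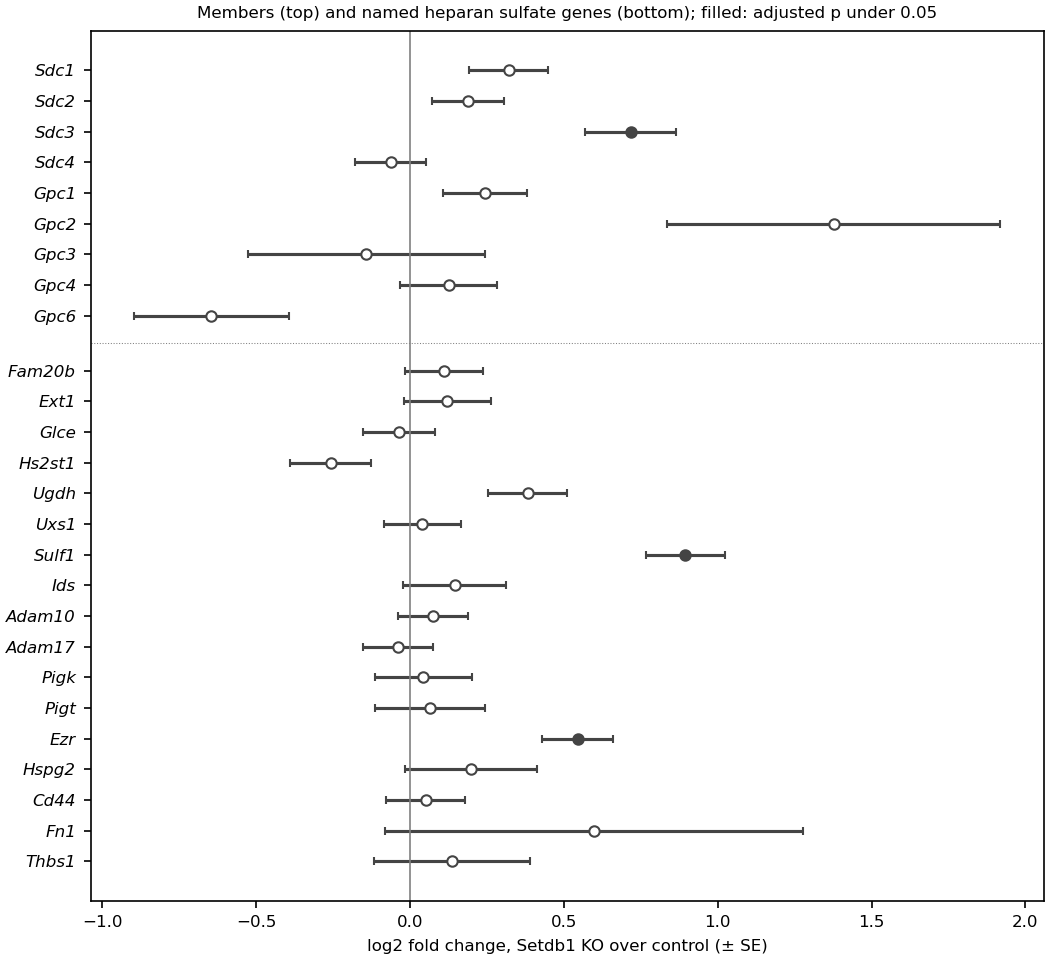
Log2 fold change, Setdb1 KO over control (x axis, point ± SE), of the 9 members (above the dotted line) and of the list genes named in the text by rule (below it); filled points passed an adjusted p of 0.05. Sdc3 at 0.72, Sulf1 at 0.89 and Ezr at 0.55 are the filled points.

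Markers of other cells were measured beside these results. Of 6 mural and smooth muscle markers, 5 were tested and Tagln and Acta2 were higher. The 6 markers summed to 158 to 210 CPM in KO and 89.1 to 120 CPM in control libraries. No marker of the list was at 0 in all libraries. The sums lay apart between groups, as did Sdc3, Sulf1 and Ezr, but not every marker of the list rose. Within KO the sum fell from library 1 to library 3 (210, 177 and 158 CPM). Sulf1 fell in the same order (107, 97.9 and 83.6 CPM). Sdc3 was highest in KO library 1 (52.4, 40.5 and 41.0 CPM), while Ezr rose (142, 146 and 164 CPM). For Notch3 and Cspg4 every KO library was above every control library, with a log2 fold change of 0.765 for each. Neither was called (edgeR adjusted p = 0.165 and 0.213). Rgs5 had a log2 fold change of -0.0024, and Myh11 was not tested. Both were highest in control library 3. Tagln was at 18.5 ± 0.93 CPM in KO and 6.44 ± 1.95 CPM in control libraries, and Acta2 at 64.4 ± 12.2 CPM in KO and 38.9 ± 7.22 CPM in control libraries. The 12 fibroblast markers, 8 of them tested and none called, summed to 1191 to 1760 CPM in KO and 580 to 1336 CPM in control libraries. The part of such cells in the changes of Sdc3, Sulf1 and Ezr was not tested. Markers of 11 muscle stem cell genes summed to 1240 to 1651 CPM in KO and 1069 to 1143 CPM in control libraries, and Myod1 was the only one called, at 292 ± 63.4 CPM in KO and 142 ± 5.49 CPM in control libraries. Endothelial, lymphocyte, Schwann cell and macrophage markers summed to 83.3 CPM or less in each library.

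The genes whose pattern was most like that of Sdc3 were Lrp10, a lipoprotein receptor gene, Rnf169, a ubiquitin ligase gene of DNA repair, and Osgin2. Likeness was the root mean square difference of log2 CPM, centred on the mean of each gene, over the 6 libraries. It was 0.055, 0.062 and 0.075 for these genes, against a median of 0.44 over 7335 genes with a mean of at least 10 CPM. Lrp10 was at 25.5 ± 4.37 CPM in KO and 14.7 ± 1.00 CPM in control libraries. The genes most like Sdc4 were Eps15l1, Got2 and Myo1c, with differences of 0.027, 0.028 and 0.032 against a median of 0.20.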

How the data were processed

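The authors deposited a table of raw read counts (whole numbers) for 55487 Ensembl genes in 6 libraries, 3 per group. The submitters' processing notes list DESeq2 1.34.0, STAR and Salmon as tools and GRCm38 as the build. The sources used here do not say which of these made the counts, with which annotation or strand setting. The labels' protocols describe depletion of ribosomal RNA and a stranded total RNA kit, and also name an mRNA kit, so the kit is not settled. No molecular identifiers are named, so intervals of counts would cover counting error only, and p-values measure the spread between these libraries, which the labels call biological replicates.

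Counts were tested with edgeR 4.0.16 in R 4.3.3 (TMM, default low-count filter, robust quasi-likelihood test, two-sided, Benjamini-Hochberg over 11224 genes, threshold 0.05). Each SE is the log2 fold change over the root of its F value. The 16 alternatives were 3 other scalings, 2 other filters, removal of structural and mitochondrial RNA, DESeq2 1.42.0, limma 3.58.1 (voom), a replicate block, each library left out in turn, and KO library 1 and control library 3 left out together. The procedure was checked on simulated counts with known fold changes. It called 19.4% of 1.5-fold, 58.5% of 2-fold and 87.6% of 4-fold changes. A gene that did not pass may therefore still differ. Symbols (55141 of 55487 IDs) came from a table of Ensembl names, and positions and exon lengths from GENCODE release M21. CPM per kb divides CPM by the union of annotated exons. Members and lists were chosen with earlier results of these data known. The text names all members, Setdb1, up to 4 called genes of each list or else the 2 with the highest level, the neighbours of Sdc3 and Sdc4 the 3 genes most like each of them, Pax7, Myod1 and called markers of other cell types. Of the genes this rule names, 2 are not reported here.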

Additional observations from a re-analysis of the deposited data

How the results depend on the processing

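Without the low-count filter 511 genes were called (138 lower), and DESeq2 called 184 (147 higher, 37 lower). Leaving out 1 library gave 152 to 345 genes, with 133 to 255 higher and 15 to 90 lower; the counts were 152 without KO library 1, 157 without control library 2 and 180 without KO library 2. Without both control library 3 and KO library 1, 106 genes were lower. Replicate numbers did not pair the libraries (correlations of same-numbered deviations 0.142, -0.0925 and -0.0615). With the replicate number as a block, 41 genes were lower, and Sdc3 (0.72, adjusted p = 0.013), Sulf1 and Ezr kept their calls. Members of the heparan sulfate lists called numbered 1 with library totals alone, 4 without the filter (Col18a1, Fgf2, Mmp2 and Sulf1) and 1 to 2 without 1 library.

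Sdc3 kept its direction in all 16 settings and its call in 11. It was not called with library totals alone (0.64), with DESeq2 (0.68), or without both control library 3 and KO library 1 (0.55), and ran from 0.59 to 0.81 without 1 library. Gpc4 was reversed without control library 3 and KO library 1 together (-0.0536) and ran from -0.0405 to 0.22 without 1 library. The other members kept their direction and were not called in any setting. With the longest transcript as length, the mean share of Sdc1 was 9.10% in place of 7.93%, and that of Gpc4 18.4% in place of 21.8%.

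Genes with small fold changes changed sign, none of them called: Uxs1 with library totals (-0.0295), without the filter (-0.0036) and without both libraries (-0.0358), Pigt with library totals (-0.0084) and without both libraries (-0.12), Pigk (-0.0254) and Cd44 (-0.0189) with library totals, and Sys1 with DESeq2 size factors (-0.0079), library totals (-0.044), no filter (-0.0406), a minimum of 1 CPM (-0.0072) and DESeq2 (-0.0271). Without 1 library the log2 fold changes ran from -0.10 to 0.0322 for Glce, -0.0207 to 0.0779 for Uxs1, -0.15 to 0.21 for Pigt, -0.12 to 0.11 for Pigk, -0.0163 to 0.0802 for Cd44, -0.14 to 0.36 for Thbs1, -0.75 to 1.71 for Laptm5, -0.31 to 0.32 for Sys1 and -0.0926 to 0.0151 for Got2. The causes were not tested. Of the genes most like Sdc3, Lrp10 lost its call in 4 settings, Rnf169 in 7 and Osgin2 in 11. Gpc2 and Gpc3 rest on 2 to 29 counts per library, which limits the precision of their fold changes.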
